A study of Bos taurus with 8 samples.

Results

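The genes described here form the core of the fibroblast growth factor (FGF) pathway as it is studied in early embryos, together with its feedback inhibitors: the ligand FGF4, the receptors FGFR1, FGFR2 and FGFR3, the adaptor GAB1, the inhibitors SPRY1, SPRY2, SPRY4 and DUSP6, and the ERK target ETV5. They were taken by gene symbol from the annotation of the array and were read by 17 probes, so that 10 of the 15229 named genes and 17 of the 43794 probes are treated. The RNA labelled ICM (inner cell mass) and the RNA labelled TE (trophectoderm) came from bovine blastocysts grown in vivo and collected at day 7.5 from 26 superovulated Holstein cows. Each group had 4 pools of tissue. By the replicate numbers in the labels, each ICM pool was taken as hybridized with the TE pool of the same number. Each such pair was on 2 arrays in opposite dye orientations, giving 8 two-color arrays. Blastocysts had been cut with a microblade to obtain pure TE, and the ICM had been freed of its remaining TE by antibody and complement, so the TE pools hold cells of the ICM-free piece only. Because the ICM alone went through these incubations, tissue and handling cannot be told apart. No agent was tested and no allele differs between the groups. The p-values measure the spread between the 4 pool pairs.

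FGF ligands bind receptor tyrosine kinases at the cell surface, adaptors couple the active receptor to RAS, and RAF, MEK and ERK kinases carry the signal to the nucleus. Active ERK switches on ETS transcription factors as well as its own inhibitors, among them the Sprouty proteins, which act between the receptor and RAF, and the phosphatase DUSP6, which removes phosphate from ERK. In the mouse blastocyst FGF4 is made by the epiblast, and FGFR1 and FGFR2 receive it in hypoblast precursors and in the trophectoderm. In cattle, ERK signaling is also known to favour hypoblast over epiblast.

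The labels were checked against marker genes before the members were read. The epiblast factor NANOG had a log2 ratio of RNA labelled ICM over RNA labelled TE of -3.50 (adjusted p = 0.00317), and POU5F1 and SOX2 had -0.84 and -0.45. The trophoblast factors TFAP2A, GATA2, GATA3 and CDX2 had 2.05, 1.80, 0.82 and 0.48. This direction, taken from the dyes named in the labels, opposes the one the study gives for these tissues. By RT-qPCR the study also found NANOG and EGR1 higher in ICM and GATA2 higher in TE, again opposite to the direction here. The groups are therefore called RNA labelled ICM and RNA labelled TE throughout. Under the study's direction every sign below would turn, so a lower value in RNA labelled ICM is not a statement about the inner cell mass. Of 14 measured trophoblast markers 9 were higher and 0 lower in RNA labelled ICM, with a mean level of 11.5 to 11.8 across pools labelled ICM and 10.6 to 10.8 across pools labelled TE (normalized log2 intensity). Of 11 epiblast markers 0 were higher and 5 lower, at 9.39 to 9.69 and 10.4 to 10.5, and of 8 hypoblast markers 0 were higher and 1 lower, at 10.2 to 10.5 and 10.9 to 11.1. At an adjusted p at or under 0.05, 4 hypoblast markers were lower and 1 was higher. By their brightest probes, those lower included HNF4A at -2.74 (adjusted p = 0.0102) and PDGFRA at -1.73 (0.0174), and the one higher was LAMA1 at 1.12 (0.0150). The other HNF4A probes had -0.50 (adjusted p = 0.0309) and -0.03 (0.724), and the other PDGFRA probes -0.28 (0.118) and -0.08 (0.185). The study reports HNF4A as upregulated in ICM on its arrays, but without a difference between ICM and TE by RT-qPCR. Of 7 leukocyte markers 0 were higher and 1 lower (CD68, -1.55), with mean levels of 8.07 to 8.45 across pools labelled ICM and 8.25 to 8.79 across pools labelled TE. The pan-leukocyte marker PTPRC had 0.18 (adjusted p = 0.516) by its brightest probe, but its level differed widely between pools. It ran from 8.47 in pool 3 to 12.21 in pool 1 labelled ICM, and from 8.44 to 11.90 in the same pools labelled TE. Its ratio was 0.56 with ICM in Cy5 and -0.19 with ICM in Cy3. The second PTPRC probe was not well above background on any channel. Of 6 cumulus cell markers 0 were higher and 1 lower (INHBA, -0.47), with mean levels of 8.11 to 8.19 and 8.11 to 8.25. These 6 had 3 positive and 3 negative ratios, and CYP19A1 had 0.49 (adjusted p = 0.0126) by its brightest probe, the sign of the trophoblast markers. The other CYP19A1 probes had 0.25 (adjusted p = 0.122) and 0.05 (0.519). The study reports CYP19A1 among steroid synthesis genes upregulated in TE, so it does not mark cumulus cells alone. The part of cell composition in the ratios below was not tested, and in pooled tissue fewer cells of a type and less RNA per cell cannot be told apart.

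The signal of the members ran from the level of the negative controls to far above it. A probe was counted as measured on a channel when its raw signal lay over the mean of the negative control spots by more than 2 SD, a limit that 54.4% to 65.6% of all probes exceeded per channel. Of the 17 member probes, 6 exceeded it on all 16 channels (8 labelled ICM and 8 labelled TE), 9 exceeded it on 8 or fewer, and 1, the second probe of FGFR2, exceeded it on none. By their brightest probe, 8 of the 10 genes were above the limit on at least 8 channels, against 10483 of the 15229 named genes. The other 2 genes, FGF4 and FGFR3, lay at the limit. Levels of different probes were not compared, since probes differ in how strongly they bind.

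**Figure D1:**
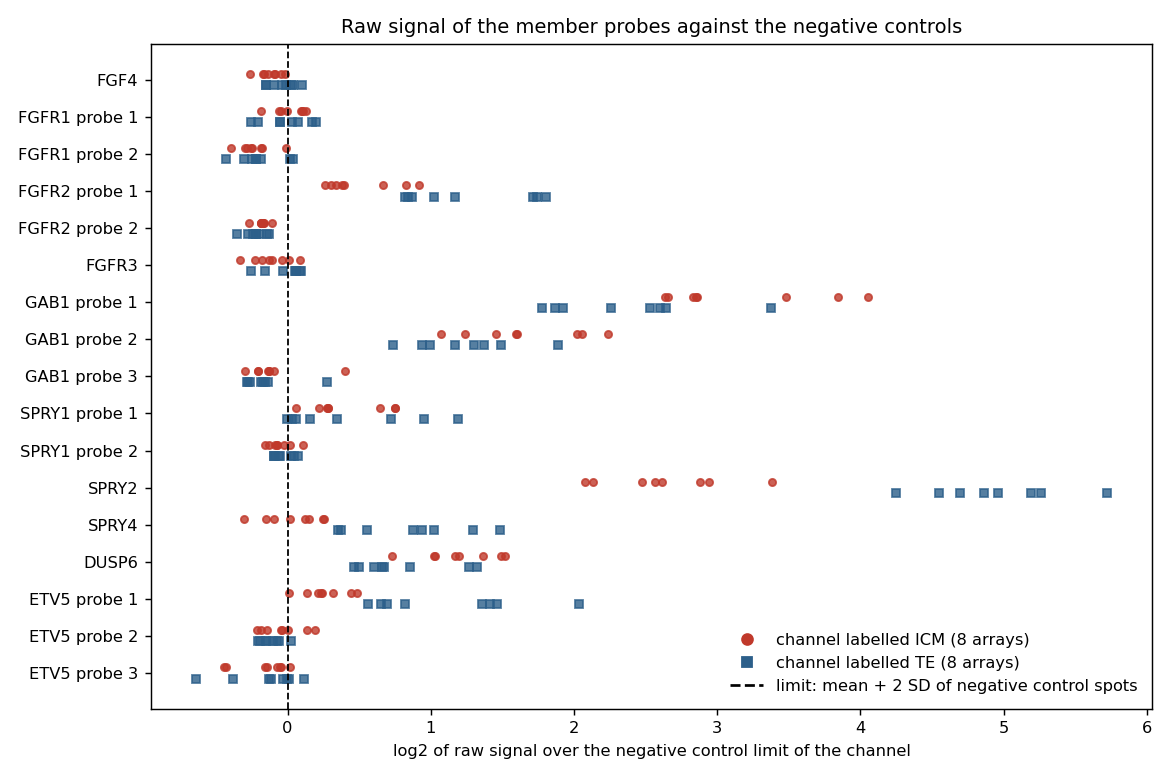
Raw signal of each member probe as log2 over the negative control limit of its channel (x axis), one point per array, with channels labelled ICM as circles and channels labelled TE as squares. SPRY2 and the first 2 probes of GAB1 lie to the right of the limit on every channel, while FGF4, FGFR3 and the second probe of FGFR2 lie around or below it.

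By the brightest probe of each gene, 1 of the 10 members was higher in RNA labelled ICM (GAB1) and 1 was lower (SPRY2) at an adjusted p at or under 0.01, where 5.27% of all named genes passed, 3.35% upward and 1.92% downward. At an adjusted p at or under 0.05, FGFR2 was also lower, giving 1 higher and 2 lower, where 15.5% of named genes passed, 8.69% upward and 6.85% downward. All 3 of these members belong to the 8 that were above the limit on at least 8 channels, and of all named genes so measured 7.64% passed at 0.01 and 22.5% at 0.05. Counted by probe, 2 of 17 passed at 0.01, where 3.27% of all probes did, 1.92% upward and 1.35% downward. The median log2 ratio of the 10 members was -0.06, beside 0.01 over all named genes. The pool levels of 5 members (SPRY2, GAB1, FGFR2, SPRY4 and ETV5) did not overlap between the labels, against 17.9% of named genes and 24.9% of those above the limit on at least 8 channels. By probe this was 7 of 17, against 13.2% of all probes, and the 7 include the second FGFR2 probe, which was not well above background on any channel. One sign on all 8 arrays was kept by 8 members, against 22.7% of named genes, and by 9 member probes, against 16.8% of all probes. Those 8 members include FGF4 and FGFR3, whose signal lay at the limit. The members were chosen with earlier results of these data known, so their shares beside the background are a description and not a test. Treating the 8 arrays singly with the pool number as a random block (estimated correlation 0.0356), in place of averaging each dye-swapped pair, gave 2 members higher and 4 lower, where 5320 of all probes passed instead of 1433. With a dye term added to that block (estimated correlation 0.438), 1 member was higher and 2 were lower, where 4531 probes passed. Without the dye term the 8 arrays counted almost as separate replicates. Yet arrays of the same pool number deviated together from the means of their dye orientations (r from 0.553 to 0.839). The adjusted p of the block without a dye term, here and below, thus treats arrays of the same pools as nearly independent.

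Of the ligand and its 3 receptors, 0 passed the 0.01 limit by limma, and FGFR2 alone passed at 0.05. FGF4, the ligand that the mouse epiblast secretes, was not well above background on any of the 8 channels labelled ICM and was above it on 3 of 8 labelled TE. Its levels were 7.94, 7.90, 7.92 and 7.91 in the pools labelled ICM (7.92 ± 0.02, SD, n = 4), against 8.02, 7.94, 7.93 and 7.94 in the pools labelled TE (7.96 ± 0.04). The difference did not pass the test (adjusted p = 0.403), and no fold is given because most channels of both labels were not well above background. At this signal a difference in FGF4 was not detectable.

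FGFR1, the receptor that both the epiblast and the hypoblast carry in the mouse, was read by 2 probes. The first was above the limit on 4 of 8 channels of either label, at 8.02 ± 0.05 in RNA labelled ICM and 7.98 ± 0.07 in RNA labelled TE (SD, n = 4 each), with a log2 ratio of 0.04 (adjusted p = 0.476). Its pool levels overlapped, from 7.94 to 8.06 in the pools labelled ICM and from 7.89 to 8.07 in those labelled TE. The second probe was above the limit on 2 channels labelled TE and on 0 labelled ICM, so no fold is given (adjusted p = 0.602). FGFR3 was above the limit on 2 channels labelled ICM and on 5 labelled TE. Its levels were 7.87 ± 0.08 in RNA labelled ICM and 7.94 ± 0.08 in RNA labelled TE, with a log2 ratio of -0.07 (adjusted p = 0.283), again with overlapping pools.

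FGFR2, the receptor linked to hypoblast and trophectoderm in the mouse, had one probe above the limit on all 16 channels. Its levels were 8.36, 8.21, 8.33 and 8.29 in the pools labelled ICM, against 9.25, 8.68, 8.62 and 8.79 in the pools labelled TE. Every pool labelled ICM lay below every pool labelled TE, and the pools labelled ICM lay close together (SD 0.07) while those labelled TE spread more (SD 0.29), with pool 1 highest. The mean log2 ratio was -0.53 with a standard error of 0.10 and a 95% interval of -0.81 to -0.26, that is 1.45-fold lower in RNA labelled ICM (adjusted p = 0.0458), and all 8 arrays had this sign. The arrays with ICM in Cy5 averaged -0.48 and those with ICM in Cy3 -0.59. With the replicate block the adjusted p was 0.00234, and 0.00864 with a dye term added, within a range of 0.000774 to 0.160 over the alternative settings. The authors' normalized ratios gave -0.87 and the mean over both FGFR2 probes -0.25, since the second probe was not well above background on any channel and has no fold.

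GAB1, the docking protein that binds active receptors through GRB2 and recruits the phosphatase SHP2 and PI3-kinase, was the one member higher in RNA labelled ICM. Its brightest probe stood at 10.93, 10.55, 10.41 and 10.82 in the pools labelled ICM, against 9.92, 9.60, 9.72 and 9.94 in the pools labelled TE. The lowest pool labelled ICM was above the highest pool labelled TE. The log2 ratio was 0.88 with a standard error of 0.06 and a 95% interval of 0.73 to 1.04 (1.84-fold, adjusted p = 0.00400), all 8 arrays had this sign, and the 4 pair ratios ran from 0.69 to 1.01. Leaving out any 1 of the 4 pool pairs took the adjusted p of GAB1 above 0.01, to values from 0.0104 without pair 1 to 0.0312 without pair 4.

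The 3 GAB1 probes did not give one value. The second, above the limit on all 16 channels, stood at 9.46, 9.26, 9.0 and 9.05 in the pools labelled ICM, against 8.89, 8.62, 8.71 and 8.72 in the pools labelled TE. These groups did not overlap either, but the log2 ratio was smaller, 0.46 with a standard error of 0.07 (adjusted p = 0.0253), and it was 0.65 with ICM in Cy5 and 0.26 with ICM in Cy3. The third probe was above the limit on 1 channel of either label and had a ratio of 0.00. Averaged over the 3 probes the ratio was 0.45, with an adjusted p of 0.00878. For the brightest probe the adjusted p ran from 9.78e-06 to 0.0920 over the alternatives.

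SPRY2 gave the largest difference of the 10 members. The gene encodes a Sprouty protein that is induced by receptor signaling and restrains it upstream of ERK. Its levels were 9.96, 10.02, 10.50 and 10.24 in the pools labelled ICM (10.18 ± 0.24, SD, n = 4), against 12.32, 12.11, 12.52 and 12.14 in the pools labelled TE (12.27 ± 0.19). The groups were far apart relative to their spread, with pool 3 the highest in both. Before any normalization, the raw signal on the 8 channels labelled ICM was 908 at the lowest, 1034 at the median and 1371 at the highest, against 3995, 5007 and 6143 on the 8 channels labelled TE. The log2 ratio was -2.09 with a standard error of 0.08 and a 95% interval of -2.31 to -1.88, that is 4.27-fold lower in RNA labelled ICM (adjusted p = 0.00168).

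All 8 arrays and all 4 pairs carried this sign for SPRY2, with pair ratios of -2.36, -2.09, -2.02 and -1.90. Of the 43794 probes on the array, it was number 29 from the most negative ratio and number 90 by p. The ratio stayed between -2.26 and -1.97 under every alternative setting tried. The call itself depended on which pair was left out: adjusted p was 0.0118, 0.0168 and 0.0151 without pairs 2, 3 and 4, but 0.00579 without pair 1. When arrays were median-centred in place of loess, the adjusted p was 0.0151.

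The other Sprouty genes did not share this size of difference. SPRY4 stood at 7.90, 7.85, 8.24 and 7.92 in the pools labelled ICM, against 8.95, 8.31, 8.59 and 8.32 in the pools labelled TE, and was above the limit on 5 of 8 channels labelled ICM and 8 of 8 labelled TE. The pools did not overlap, but pool 3 labelled ICM came close to pools 2 and 4 labelled TE. Its log2 ratio was -0.56 with a standard error of 0.13 and a 95% interval of -0.91 to -0.21 (adjusted p = 0.0743), negative on all 8 arrays. Pair 1 was the most negative of the pairs at -1.05, the others lying between -0.46 and -0.35. Plain background subtraction gave -0.98 and the authors' normalized ratios -1.0, and with the replicate block the adjusted p was 0.00508, or 0.0155 with a dye term added (0.000451 to 0.179 over the alternatives).

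SPRY1 showed no difference that held across pairs. Its brighter probe was above the limit on 8 channels labelled ICM and 7 labelled TE, at 8.37, 8.15, 8.12 and 8.29 in the pools labelled ICM, against 8.70, 8.08, 8.05 and 8.19 in the pools labelled TE. Pool pair 1 had a ratio of -0.32 and the other 3 pairs lay between 0.07 and 0.10. The mean was -0.02 with a 95% interval of -0.24 to 0.20 (adjusted p = 0.931), and without pair 1 it was 0.08. The signal of this probe lay close to the limit on most channels, which narrows what a ratio could show. The second SPRY1 probe, above the limit on 2 channels labelled ICM and 3 labelled TE, had a ratio of -0.03 (adjusted p = 0.626).

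DUSP6, the cytoplasmic phosphatase that acts on ERK, ran the other way from SPRY2 without passing the test. It stood at 8.96, 8.96, 8.77 and 8.75 in the pools labelled ICM, against 8.85, 8.51, 8.45 and 8.18 in the pools labelled TE. Pool 1 labelled TE lay within the range of the pools labelled ICM, so the groups overlapped, although within each pair the pool labelled ICM was higher and all 8 arrays were positive. The log2 ratio was 0.36 with a standard error of 0.08 and a 95% interval of 0.15 to 0.57 (adjusted p = 0.0613). The authors' normalized ratios gave 0.75, and with the replicate block the adjusted p was 0.00421, or 0.0165 with a dye term added (0.00200 to 0.197 over the alternatives).

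ETV5, an ETS factor of the PEA3 subfamily that FGF signaling induces, had a negative ratio in every pair by its brightest probe and did not pass the test. Its levels were 8.08, 8.08, 8.18 and 8.21 in the pools labelled ICM, against 8.95, 8.43, 8.44 and 9.0 in the pools labelled TE. The pools did not overlap, and the pools labelled TE split into a higher pair (1 and 4) and a lower pair (2 and 3). This probe was above the limit on all 16 channels, but its raw signal labelled ICM lay close to it. With ICM in Cy5 it was 187 against 186 in pool 2 and 139 against 99.5 in pool 4. The part of this dim signal in the ratio was not tested. The log2 ratio was -0.57 with a standard error of 0.13 and a 95% interval of -0.90 to -0.24 (adjusted p = 0.0616), negative on all 8 arrays. Background subtraction gave -0.90 and the authors' normalized ratios -0.93, and with the replicate block the adjusted p was 0.00339, or 0.0119 with a dye term added (0.000267 to 0.203 over the alternatives). The other 2 ETV5 probes, which were above the limit on at most 4 of 16 channels, had ratios of 0.04 and -0.03, and the mean over the 3 probes was -0.19.

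**Figure D2:**
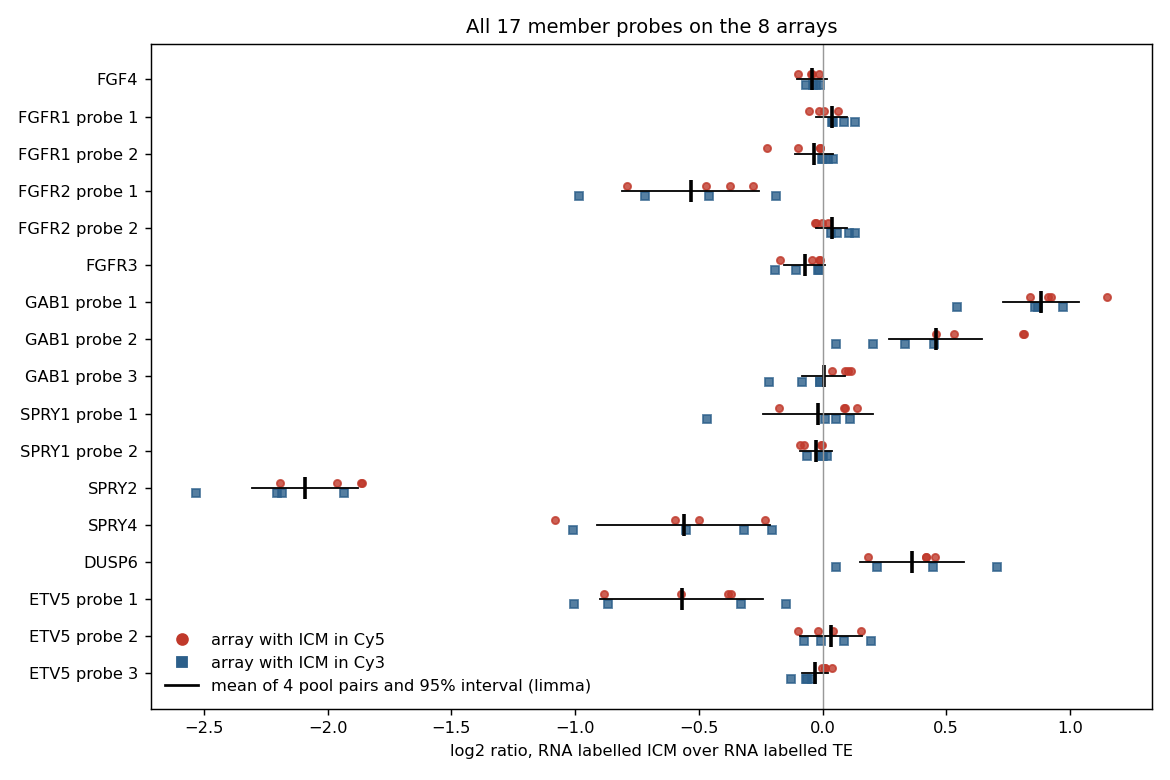
Log2 ratio of RNA labelled ICM over RNA labelled TE (x axis) for the 17 member probes, one point per array with ICM in Cy5 as circles and ICM in Cy3 as squares, and with the mean of 4 pool pairs and its 95% interval in black. SPRY2 lies near -2.09 and the first GAB1 probe near 0.88, while FGFR2, SPRY4 and ETV5 by their first probes lie between -0.57 and -0.53.

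Pool pair 1 was the most negative pair for SPRY2, FGFR2, SPRY4, ETV5 and SPRY1 and the most positive for the first GAB1 probe, but the least positive for DUSP6. The ratios of that pair were also the widest over all probes, with an SD of 0.388, against 0.285, 0.270 and 0.309 for pairs 2, 3 and 4. The part of that spread in the member values was not tested. The 4 feedback inhibitors lay on both sides of 0: SPRY2 and SPRY4 had negative ratios, DUSP6 a positive one and SPRY1 one near 0. Of these 4, SPRY2 alone passed the test.

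The wider pathway was read from a list of 92 other genes of FGF and ERK signaling, of which 82 were on the array and 49 were above the limit on at least 8 channels. By their brightest probe 2 were higher in RNA labelled ICM (SDC1 and NRAS) and 2 lower (DUSP1 and FOS) at the 0.01 limit, and 3 and 9 at 0.05, with a median log2 ratio of 0.00. This is 4.88% of the list, beside 5.27% of all named genes, and 14.6% at 0.05, beside 15.5%, so the list as a whole was near the background. Of the 18 other FGF ligands on the array 8 were above the limit on at least 8 channels. None of the 18 passed in either direction at either limit by limma, and for the 10 dimmer ones a difference was not detectable. None of the 10 other adaptors passed, of which 6 were above the limit on at least 8 channels. The replicate block gave 8 higher and 9 lower, and 8 and 8 with a dye term added.

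SDC1 encodes syndecan-1, a heparan sulfate proteoglycan that can present FGFs to their receptors. It stood at 10.39, 9.36, 9.63 and 9.39 in the pools labelled ICM, against 9.48, 8.76, 8.78 and 8.53 in the pools labelled TE, a log2 ratio of 0.81 ± 0.06 (standard error, adjusted p = 0.00478). Pool 1 was the highest under both labels, so the groups overlapped although every pair was positive. The ratio was 1.11 with ICM in Cy5 and 0.50 with ICM in Cy3, where it did not pass (adjusted p = 0.0671), nor did it without background correction (0.0178). The RAS gene NRAS stood at 11.76, 11.07, 11.09 and 11.03 in the pools labelled ICM, against 11.33, 10.68, 10.57 and 10.71 in the pools labelled TE, a ratio of 0.41 ± 0.04 (adjusted p = 0.00774). The other 2 NRAS probes, also above the limit on all 16 channels, had 0.33 (adjusted p = 0.127) and 0.18 (0.363). The mean over the 3 probes, 0.31, did not pass (0.0386), nor did NRAS with background subtraction (0.0101) or in the authors' normalized ratios (0.0108). Both SDC1 and NRAS lost the call without any 1 of the 4 pool pairs (adjusted p up to 0.0354 for SDC1 and 0.0392 for NRAS). SPRED1, a Sprouty-related inhibitor of RAS activation, had a ratio of 0.60 (adjusted p = 0.0316) by its brightest probe, but 0.06 and 0.00 by the other 2 (adjusted p = 0.633 and 0.955), and 0.22 as the mean over the 3 (0.0503). The kinase scaffold KSR1, the kinase ARAF and the glypican GPC1 had 0.85, 0.46 and 0.43, with adjusted p of 0.0512, 0.0517 and 0.0643.

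DUSP1, a nuclear phosphatase of MAP kinases, was the other feedback gene that passed the test, in the same direction as SPRY2. It stood at 10.17, 10.26, 10.23 and 10.44 in the pools labelled ICM, against 11.42, 11.54, 11.61 and 11.69 in the pools labelled TE, a log2 ratio of -1.29 ± 0.03 (standard error, adjusted p = 0.00127). FOS, an immediate early transcription factor, stood at 11.01, 11.11, 10.73 and 10.91 in the pools labelled ICM, against 12.47, 12.18, 12.23 and 12.30 in the pools labelled TE, a ratio of -1.36 ± 0.08 (adjusted p = 0.00324). Neither gene's pools overlapped. The second FOS probe had -0.11 (adjusted p = 0.340), and the mean over both was -0.73 (0.00413). FOS lost the call without each of the 4 pairs in turn (adjusted p up to 0.0281), and DUSP1 without pairs 2, 3 and 4 (0.0103, 0.0140 and 0.0132).

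The 7 ERK target genes that were lower at the 0.05 limit were FOS and 6 others, out of 19 on the array, of which 13 were above the limit on at least 8 channels. That is 36.8% of the 19, beside 6.85% of all named genes, for a list chosen with results of these data known. These were IER2 at -0.74 (adjusted p = 0.0123), FOSL1 at -1.01 (0.0140), EGR1 at -1.68 (0.0193), IER3 at -0.39 (0.0189), JUNB at -0.59 (0.0310) and PHLDA1 at -0.30 (0.0323). Most of these are immediate early genes, which many stimuli besides FGF induce quickly, and the difference in handling of ICM and TE applies to them too. FLRT3, a membrane protein that binds FGF receptors, had the most negative ratio of the list, -2.03 with a standard error of 0.26 (adjusted p = 0.0157). Its other 2 probes had -0.72 (adjusted p = 0.0825) and 0.00, and the mean over the 3 was -0.92 (0.0250). IER2 also had a second probe, at 0.07 (adjusted p = 0.746), and its mean over both was -0.34 (0.0579). ETV1 and ETV4, the other factors of the PEA3 subfamily, had 0.22 (adjusted p = 0.451) and 0.02 (adjusted p = 0.797).

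FGFR4, the receptor that is not a member of the set above, gave 2 answers by probe. Its brightest probe had a ratio of 0.00 (adjusted p = 0.994), with levels from 8.83 to 8.91 in the pools labelled ICM and from 8.68 to 9.05 in the pools labelled TE. The other probe had a ratio of -0.58 with a standard error of 0.06 (adjusted p = 0.0110), from 8.10 to 8.43 in the pools labelled ICM and from 8.80 to 9.01 in the pools labelled TE. That probe was negative on all 8 arrays and its pools did not overlap.

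**Figure D3:**
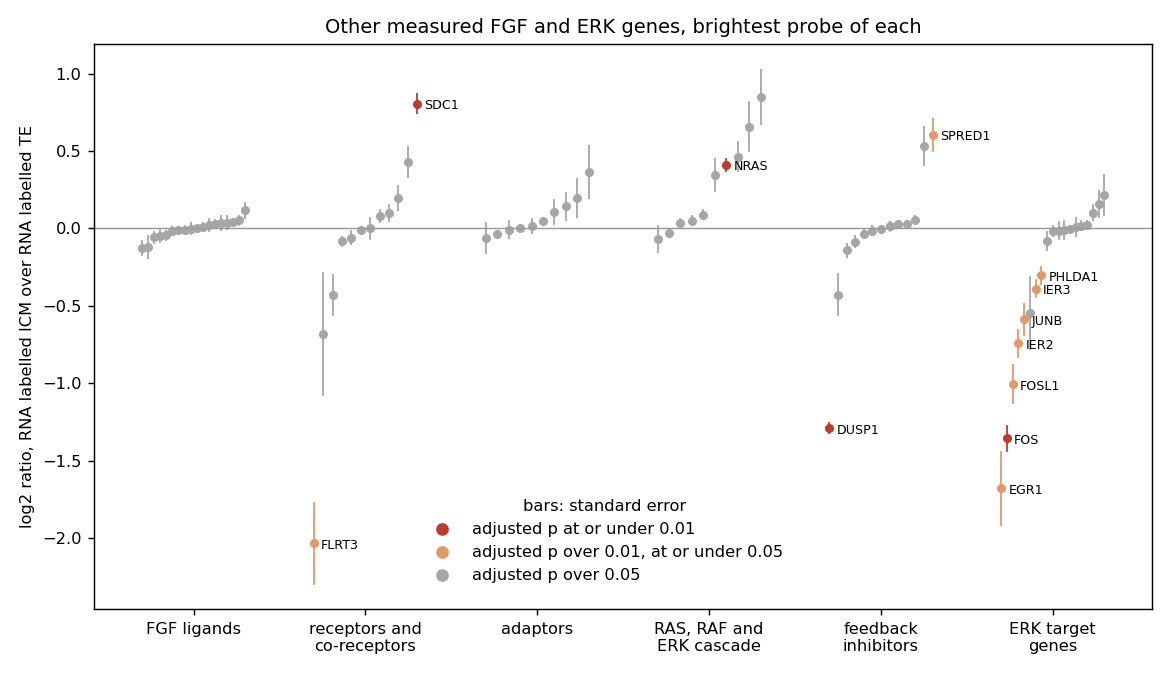
Log2 ratio of RNA labelled ICM over RNA labelled TE (y axis) for the brightest probe of the 82 other FGF and ERK genes, sorted within each role on the x axis, with standard error bars and color by adjusted p. The ligands lie within -0.13 to 0.12, most of them near background, while DUSP1 and several target genes lie far below 0 and SDC1 above it. The lowest point is FLRT3 at -2.03 and the highest is KSR1 at 0.85.

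The genes whose 4 pair ratios lay closest to those of SPRY2, by the root mean square difference over the 4 pairs among 15228 other genes, were SELP (0.174), IL1A (0.214), BTG2 (0.242), IFITM3 (0.278) and EDN3 (0.297). Their mean log2 ratios were -2.23, -1.97, -2.03, -1.89 and -1.89. They encode an adhesion receptor of platelets and endothelium (SELP), a cytokine (IL1A), an antiproliferative protein (BTG2), an interferon-induced membrane protein (IFITM3) and an endothelin (EDN3).

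**Figure D4:**
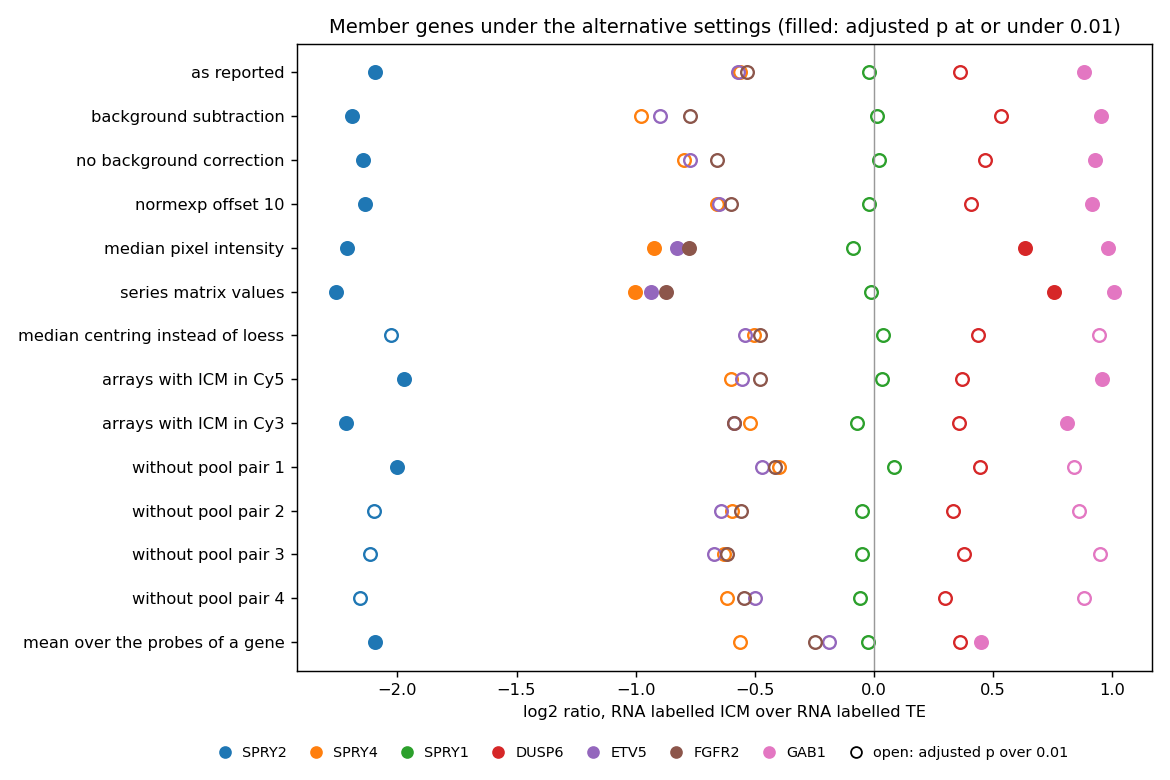
Log2 ratio of RNA labelled ICM over RNA labelled TE (x axis) for 7 members under the settings listed on the y axis, filled where the adjusted p was at or under 0.01. SPRY2 stays left of -1.97 and GAB1 at or right of 0.45 in each row, whereas SPRY1 changes sides of 0.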

How the data were processed

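RNA from pooled ICM and TE was amplified by T7 transcription, labelled with Cy3 and Cy5 and hybridized to EmbryoGENE arrays. The authors extracted spots with Array-pro and deposited raw spot intensity and local background intensity for both channels, with no correction. A second deposited table holds log2 ratios that were background-subtracted, then loess- and quantile-normalized by the authors. Its scale, centring and direction are not stated. Its columns tracked the Cy5 over Cy3 ratio as normalized here (r across probes from 0.730 to 0.856), had medians from -0.0257 to 0.00451, and served as an alternative only.

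Of 45220 spots per array, 1426 were controls, with weight 0 in loess, and 9 to 47 spots marked as ignored were left out. Mean intensities were corrected by normexp (offset 50), then normalized by loess and Aquantile. The labelled dyes gave the direction, ICM over TE, and both arrays of a pool pair were averaged. limma 3.58.1 (R 4.3.3) tested whether the 4 pair values differed from 0, using lmFit and eBayes, and p-values were adjusted by Benjamini-Hochberg over 43794 probes. Calls are at an adjusted p at or under 0.01. The script was tested on simulated data. The slide of each array is not among the labels read, so effects of slide were not examined. A dye effect equal on both arrays of a pair cancels in the pair mean, while one that differs between them does not. Arrays of the same replicate number, taken here as the same pools, deviated together (r from 0.553 to 0.839, against -0.548 to 0.158 for different numbers). Deviations were taken from the mean of each dye orientation. This pushes the values for different numbers below 0 when those for the same number are positive.

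Median raw signal per channel was 110 to 332, against limits from 153 negative control spots of 97.4 to 319. The number of arrays limits precision. The offset shrinks ratios of dim probes.

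The annotation names 21790 probes with 1 symbol and leaves 22004 unnamed. Where a gene had several probes, the one of highest mean intensity stands for it. Named were all members and their probes, the 6 pathway genes of smallest p in each direction, the FGF ligands, FGFR4, 5 genes nearest to SPRY2 and 7 markers. EGR1, JUNB, PHLDA1, ETV1, ETV4, HNF4A, PDGFRA, LAMA1, CD68, PTPRC, INHBA and CYP19A1 were added after their values were seen. The members and all lists were chosen with earlier results of these data known. Promoter motifs were planned but not searched, and no sequences are given.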

Additional observations from a re-analysis of the deposited data

Results flagged for a closer look

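In 87 groups of 4 values (pool ratios, levels labelled ICM and levels labelled TE of 29 probes), 4 held a value far from the other 3 by the ratio of the gap to the whole range. Chance gives about 1 in 20 groups. All 4 were in pool pair 1. The ratio of SPRY1 was -0.32 there (gap over range 0.936) and that of SPRY4 was -1.05 (0.846). The level of NRAS labelled ICM was 11.76 (0.915), and the level of FGF4 labelled TE was 8.02 (0.845), at the limit of the negative controls.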

How the results depend on the processing

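SPRY2, GAB1, FGFR2, SPRY4, ETV5 and DUSP6 kept their direction under all alternatives. SPRY1 turned positive with background subtraction (0.012), no background correction (0.021), median centring (0.038) and ICM in Cy5 (0.035), and it ran from -0.058 to 0.082 without one pool pair in turn, positive without pair 1. Against 1433 probes called, with 1 member and 2 pathway genes higher and 1 and 2 lower, the counts moved as follows. Median centring in place of loess left 1 probe and 0 genes of either list in either direction. A filter on dim probes gave 2203 probes and 6 pathway genes lower. The authors' ratios gave 4029 probes, 2 members higher and 4 lower, and 9 pathway genes lower. The 8 arrays with the replicate block gave 5320 probes, 2 members higher and 4 lower, and 8 pathway genes higher and 9 lower, and with a dye term added 4531 probes, 2 members lower, and 8 pathway genes higher and 8 lower. Background subtraction gave 1 pathway gene higher and 5 lower, no background correction 1 higher, ICM in Cy5 alone 1 higher and 4 lower, ICM in Cy3 alone 0 higher, and the mean over probes 1 higher. A limit of 0.05 gave 4714 probes, 2 members lower and 9 pathway genes lower. A fold of at least 2 added to the limit of 0.01 left 458 probes, with 0 members and 0 pathway genes higher. The 2 choices made after seeing the data were an offset of 10, which kept all member and pathway counts, and median pixel intensity, which gave 3671 probes, 2 members higher and 4 lower, and 4 pathway genes higher and 7 lower. Without one pool pair in turn, 0 to 828 probes, 0 members higher, 0 to 1 lower, 0 pathway genes higher and 0 to 1 lower passed by limma, with 8351 to 9320 probes at an unadjusted p under 0.05. Aquantile leaves ratios within an array as they are, so omitting it gave the same values. Causes of these moves were not tested. Leaving out a pair changes both the number of pools and which pools remain. Signal over background limits what can be said of FGF4, FGFR1 and FGFR3, and of the levels labelled ICM of FGFR2 and ETV5.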
